A study of Mus musculus with 2 samples.

Results

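The 5 genes Mbp, Mog, Mag, Mobp and Cnp, which encode structural proteins and an enzyme of myelin, were taken by name from the GENCODE M21 annotation, and all 5 of 5 were found among 21911 protein-coding gene symbols. Their chromatin was read from DNase-seq, an assay in which DNase I cuts DNA free of nucleosomes, in hippocampus of mice. Both libraries were of male B6CASTF1/J mice (F1 animals of a C57BL/6J by CAST/EiJ cross) at an age of 10 days, labelled layer of hippocampus, with no treatment or altered allele named. Each library came from its own tissue sample, described as 3 males, and the samples carry the biological replicate labels 1 and 2. Both samples also carry 1 donor label, so the spread between the 2 replicates may be partly technical. There was 1 group and no second condition, so no test between conditions was possible, and values are given for replicate 1 and replicate 2 side by side. Positions are 1-based and refer to mm10 (GRCm38).

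Myelin is the membrane sheath that oligodendrocytes wrap around axons, and in the mouse forebrain it forms mostly after birth. MBP, the myelin basic protein, holds the cytoplasmic faces of the wraps together, and MOBP is a smaller basic protein of compact myelin. MAG, an adhesion protein of the innermost wrap, faces the axon, MOG lies on the outermost surface, and CNP is a phosphodiesterase of the cytoplasmic channels within the sheath. The Mbp gene also has upstream Golli starts, whose transcripts are known from oligodendrocyte precursors, neurons and immune cells as well, whereas the classic MBP forms of compact myelin begin at a start far inside the Golli unit.

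Of the 5 genes, Mbp and Cnp had an accessible region, meaning a region of the authors' shorter list within 1000 bp of an annotated start, and Mog, Mag and Mobp had none. This count of 2 of 5 was the same in replicate 1 and replicate 2 and in the longer, more permissive lists. Among all coding genes the share with such a region was 59.6% in replicate 1, 64.1% in replicate 2 and 59.3% in both. In the longer lists it was 64.9% and 68.5%, and 64.4% in both. In Mbp the accessible start was that of Golli and not that of the classic forms. In bulk tissue, fewer cells of a type and less open DNA per cell cannot be told apart.

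The DNA just upstream of 4 of the genes is printed from the RefSeq promoter table (GRCm38.p6), because these are the starts at which accessibility was or was not seen. Each runs 5′ to 3′ on the gene's strand and ends before the outermost start of either annotation. Capitals mark ACAAAG or ACAATG on either strand, letters of the core bound by SOX factors, the family of the oligodendrocyte regulator SOX10.
Mog, chr17:37023399-37023648, minus strand, no region: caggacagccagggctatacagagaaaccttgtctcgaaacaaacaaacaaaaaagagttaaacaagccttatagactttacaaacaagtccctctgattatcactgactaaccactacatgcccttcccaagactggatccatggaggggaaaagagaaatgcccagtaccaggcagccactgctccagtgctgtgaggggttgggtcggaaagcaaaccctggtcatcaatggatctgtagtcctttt
Mag, chr7:30914923-30915172, minus strand, no region: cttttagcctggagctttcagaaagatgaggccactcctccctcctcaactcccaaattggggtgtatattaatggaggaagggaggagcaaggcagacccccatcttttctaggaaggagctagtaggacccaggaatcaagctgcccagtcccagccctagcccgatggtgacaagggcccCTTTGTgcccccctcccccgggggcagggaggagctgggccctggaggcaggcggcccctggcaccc
Mobp, chr9:120149492-120149706, plus strand, no region: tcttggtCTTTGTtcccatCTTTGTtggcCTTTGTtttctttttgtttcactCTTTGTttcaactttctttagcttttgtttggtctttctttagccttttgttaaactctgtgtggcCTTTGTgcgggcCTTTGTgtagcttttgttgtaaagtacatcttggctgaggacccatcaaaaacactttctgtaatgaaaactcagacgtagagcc
Cnp, chr11:100574689-100574903, plus strand, region at the start: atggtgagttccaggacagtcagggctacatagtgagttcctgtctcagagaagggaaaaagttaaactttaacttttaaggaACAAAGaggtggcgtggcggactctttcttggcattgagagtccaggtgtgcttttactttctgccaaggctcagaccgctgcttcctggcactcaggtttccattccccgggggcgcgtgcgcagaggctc
The Mobp stretch held 6 matches to ACAAAG and the Mag and Cnp stretches 1 each, whereas the Mog stretch held none of either form. Of all 32851 RefSeq promoters, 16.5% held ACAAAG in the 250 bases before the start. The replicate 2 region at the Cnp start begins downstream of the printed stretch, and that of replicate 1 covers its last part, without the marked match. The most matches were at a start without a region, and a match is only a description of the letters. For MYRF, the factor that drives myelin gene expression, CTGGTAC was in the Mog stretch (1.83% of all promoters) and CTGGCAC in those of Mag and Cnp (4.19%).

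Regions away from the starts are printed next, chosen because they were the highest at Mog, Mobp and Cnp in both libraries or, for Mobp, the highest inside the gene. The region of Mag is added as the sole one at that gene. They are on the plus strand of the reference, which is C57BL/6J and does not show CAST/EiJ bases. Capitals mark bases inside a deposited footprint, a short stretch protected from DNase I, in both libraries, or for Mag in replicate 2.
Mog, 5.2 kb upstream, chr17:37028641-37028860: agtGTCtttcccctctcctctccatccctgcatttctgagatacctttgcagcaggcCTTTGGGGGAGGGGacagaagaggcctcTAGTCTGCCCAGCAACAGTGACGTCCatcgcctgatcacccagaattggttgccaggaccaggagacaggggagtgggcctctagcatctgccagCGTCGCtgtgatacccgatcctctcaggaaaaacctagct
Mobp, 8.8 kb upstream, chr9:120140741-120140940: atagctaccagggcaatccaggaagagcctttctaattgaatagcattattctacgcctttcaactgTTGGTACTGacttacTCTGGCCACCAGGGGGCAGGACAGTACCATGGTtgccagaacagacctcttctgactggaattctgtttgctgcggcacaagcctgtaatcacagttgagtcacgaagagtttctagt
Mobp, intron, chr9:120171381-120171560: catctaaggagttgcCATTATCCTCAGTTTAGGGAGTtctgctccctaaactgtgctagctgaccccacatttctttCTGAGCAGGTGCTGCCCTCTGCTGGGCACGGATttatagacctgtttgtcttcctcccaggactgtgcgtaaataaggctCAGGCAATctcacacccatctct
Cnp, 4.2 kb upstream, chr11:100570521-100570740: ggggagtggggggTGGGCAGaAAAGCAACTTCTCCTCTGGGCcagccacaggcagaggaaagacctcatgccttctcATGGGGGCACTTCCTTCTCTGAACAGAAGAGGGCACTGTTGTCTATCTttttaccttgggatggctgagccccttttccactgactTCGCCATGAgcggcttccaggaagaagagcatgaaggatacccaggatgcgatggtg
Mag, intron, chr7:30904188-30904332: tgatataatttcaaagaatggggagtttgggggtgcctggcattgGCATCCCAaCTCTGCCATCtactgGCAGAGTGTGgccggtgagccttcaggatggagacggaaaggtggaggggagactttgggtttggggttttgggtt
None of these 5 stretches held ACAAAG or ACAATG. Footprint bases common to both libraries numbered 49 of 220 in the Mog stretch, 42 of 200 and 63 of 180 in those of Mobp, and 85 of 220 in that of Cnp.

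Starts within 100 bp of each other were joined, which gave 15 start sites from the 37 annotated transcripts of the genes. A region lay within 1000 bp of 6 of the 15 sites in each library, 2 of Mbp and 4 of Cnp. The 4 sites of Cnp share the same regions and the 2 of Mbp share 1 region, so the 6 sites stand for 2 places. Over all 63251 start sites of coding genes the share was 37.4% in replicate 1 and 41.8% in replicate 2, and 36.9% in both. The sites nearest to the limit were the last of Cnp, with a region 486 and 491 bp away, and the last of Mobp, the start of a retained-intron transcript, with a region 1469 bp away in both libraries.

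Mbp (ENSMUSG00000041607.17) lies on chromosome 18 from 82475146 to 82585637 on the plus strand, with 16 transcripts at 4 start sites. The Golli site, from 82475146 to 82475162 with 3 transcripts, was overlapped by a region of height 0.779 in replicate 1 and 0.830 in replicate 2. Height is the authors' own signal value of a region. Both values were low for a region at a start: their percentiles among all regions within 1000 bp of any annotated start were 23.8 and 25.99, where the medians were 1.40 and 1.41. The second site, a single transcript from 82475370, shared that region. The annotation gives an exon with untranslated sequence at this place, and the longer lists added neighbouring stretches up to 82476375.

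At the start site of the classic MBP forms, from 82554470 to 82554580 with 11 transcripts, the shorter lists held no region in either library. The longer list of replicate 2 held a region from 82554389 to 82554420, inside a coding exon of the Golli unit, with a height of 0.563. The longer list of replicate 1 held none there. The authors' false discovery rate per base of the cut rate, listed up to 0.05, fell under that limit at 27 bases in replicate 1 and 49 in replicate 2 of the window of 2111 bp. The lowest rate was 0.0232 and 0.0219, and 0 bases reached 0.01. In replicate 1 these bases lay from -80 to -54 relative to the first of the joined starts, and in replicate 2 from -81 to -32, so they fell at the same place in both libraries. The Golli site had 827 and 1317 such bases in 2017 bp, with lowest rates of 6.47e-05 and 0.000265. The fourth site of Mbp, a processed transcript from 82563262, had 0 bases listed in either library.

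**Figure D1:**
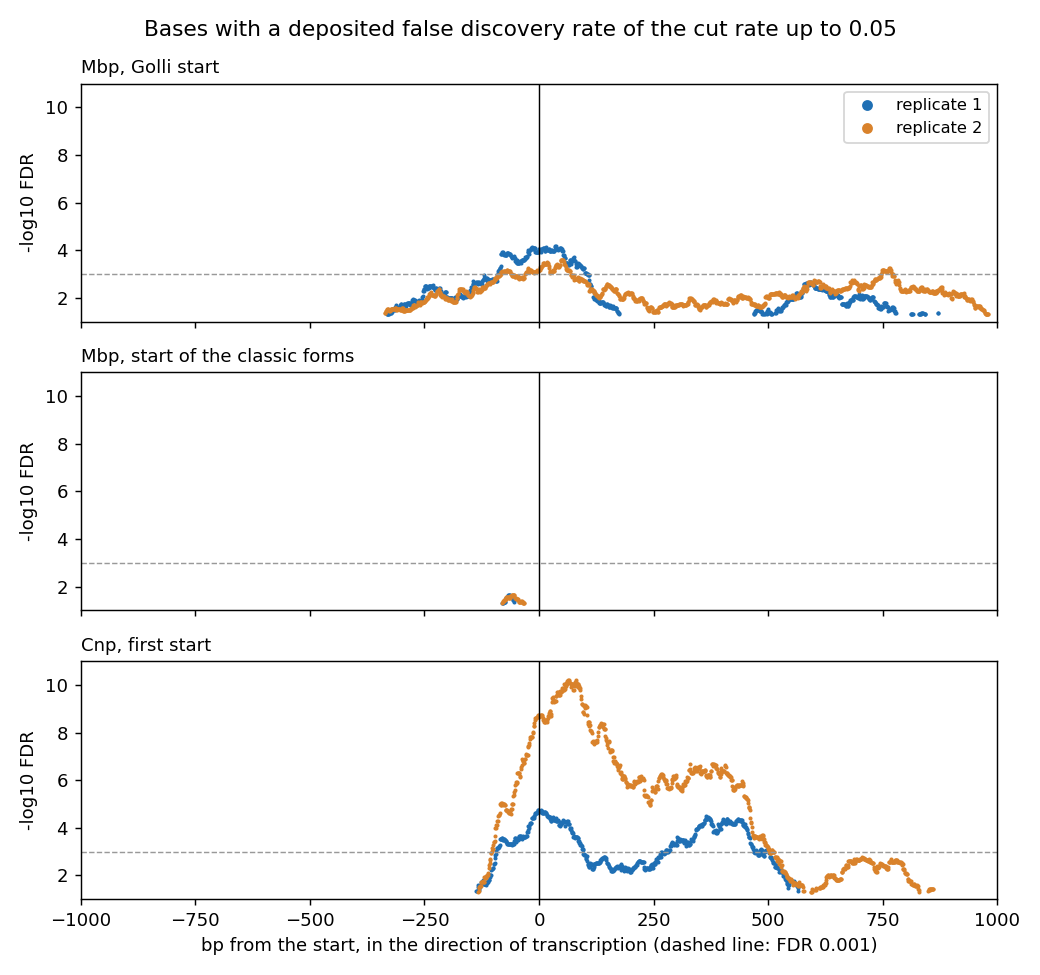
Deposited false discovery rate of the cut rate per base (vertical axis, -log10) against distance from the start in bp, for both libraries, with 1 point per base listed at 0.05 or lower. The Golli start of Mbp and the first start of Cnp carry long stretches that cross 0.001 (dashed line), and the start of the classic MBP forms carries 27 and 49 bases, all weaker than 0.01.

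Cnp (ENSMUSG00000006782.16), on chromosome 11 from 100574904 to 100591729 on the plus strand, was the other gene with an accessible start. Its first site at 100574904, the sole start of a protein-coding transcript, lay in a region from 100574811 to 100575000 of height 0.968 in replicate 1, and a second region from 100575180 to 100575405 had 0.949. In replicate 2 a region from 100574941 to 100575400 had a height of 1.27 and enclosed a listed region of 0.983. These heights had percentiles of 34.7 and 45.5 among regions at starts for the higher one of each library, so they too lay below the medians. Within 1000 bp of the first start, 703 bases in replicate 1 and 950 in replicate 2 were listed at 0.05 or lower, with lowest rates of 1.82e-05 and 6.03e-11. The place covers the untranslated and coding parts of the first exons, and its other 3 start sites belong to processed transcripts.

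At Mog, Mag and Mobp the windows around all 7 start sites were empty. Neither list held a region there, 0 footprints were listed, and 0 bases had a listed false discovery rate of 0.05 or lower in either library. The nearest region of the shorter lists was 5243 bp upstream of the first start of Mog (ENSMUSG00000076439.12, chromosome 17, 37010743 to 37023398, minus strand) in both libraries. For Mag (ENSMUSG00000036634.15, chromosome 7, 30899176 to 30914873, minus strand) it was 40928 bp from the nearest start in replicate 1 and 9976 bp in replicate 2. Of all coding genes, 83.7% and 75.6% had a region nearer to a start than Mag. For Mobp (ENSMUSG00000032517.16, chromosome 9, 120149707 to 120181484, plus strand), the first start was 8767 bp from the nearest region in both libraries.

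The empty starts were poor in CpG dinucleotides, the bases that mark most constitutively open mammalian promoters. Within 250 bp of the start, Mog had 6 and 5 CpG at its sites, Mag 11 and 6, and Mobp 9, 2 and 5. The Golli site of Mbp had 40 and the first site of Cnp 34, whereas the classic MBP site had 19. Numbered in the direction of transcription, Mbp site 2, with a region, had 39, and Mbp site 4, without one, had 8. Cnp sites 2, 3 and 4 had 39, 11 and 5. These Cnp sites count as open because they share the regions near the first Cnp start. Cnp sites 3 and 4 are thus open although they are poor in CpG. Across coding genes, sites with 0 to 4 CpG were open in 3.99% and 5.39% of cases, those with 5 to 9 in 10.5% and 14.0%, those with 10 to 19 in 27.5% and 33.8%, those with 20 to 39 in 79.0% and 85.4%, and those with 40 or more in 90.4% and 95.7%. The 3 empty genes thus lie in classes in which most starts have no region, and the part of CpG content in the result was not tested.

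**Figure D2:**
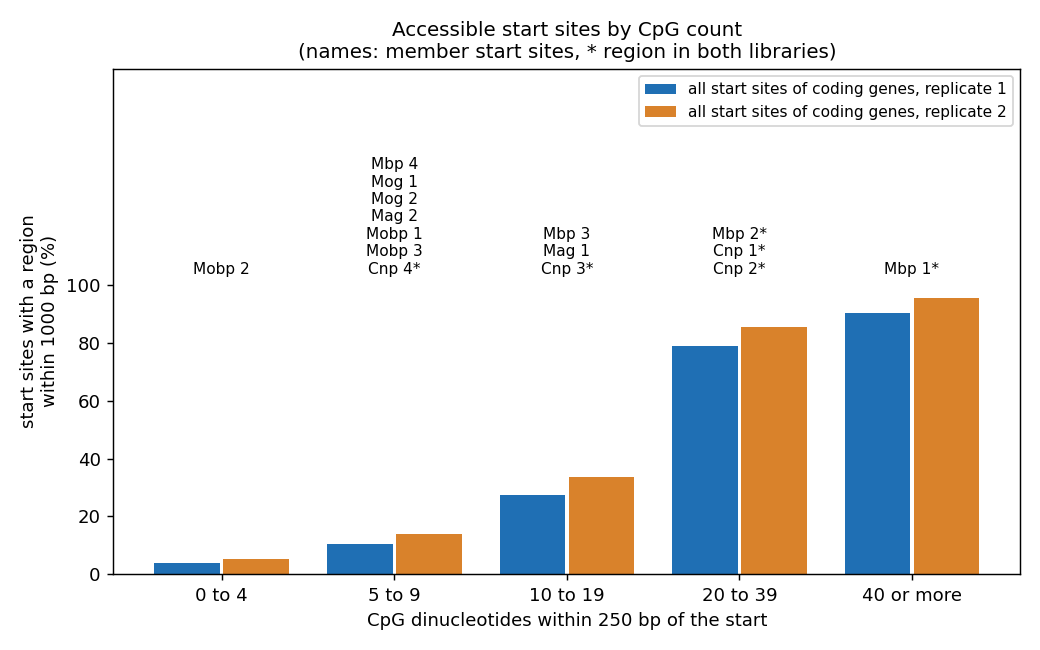
Share of all start sites of coding genes with a region within 1000 bp (vertical axis, percent) by number of CpG within 250 bp of the start, for replicate 1 and replicate 2. Names give the start sites of the 5 genes, numbered in the direction of transcription, and an asterisk marks a region in both libraries. The sites of Mog, Mag and Mobp stand in the 3 lower classes, and the Golli site of Mbp in the highest. Cnp sites 3 and 4, which share the regions near the first Cnp start, are open and also stand in the lower classes.

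Most of the places with a region at these genes lay away from their own starts. In the gene bodies plus 10 kb on each side, replicate 1 had 15 regions and replicate 2 had 20, and 14 of the 15 overlapped a region of replicate 2 by at least 1 bp. The exception, from 37003163 to 37003238 near Mog, lies beside a start of Zfp57. Regions of both lists and libraries that overlapped were joined into 34 places, of which 13 were shared in the shorter lists, 6 were in replicate 2 alone and 0 in replicate 1 alone, and 15 were in longer lists only. All 6 of the places in replicate 2 alone were in the longer list of replicate 1. Of the 13 shared places, 2 lay within 1000 bp of an own start and 11 did not, 1 of these at the start of Zfp57. Over the genome, 56.6% of regions in replicate 1 and 60.8% in replicate 2 were farther than that from any annotated start, so nothing particular to these genes is read from the count.

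**Figure D3:**
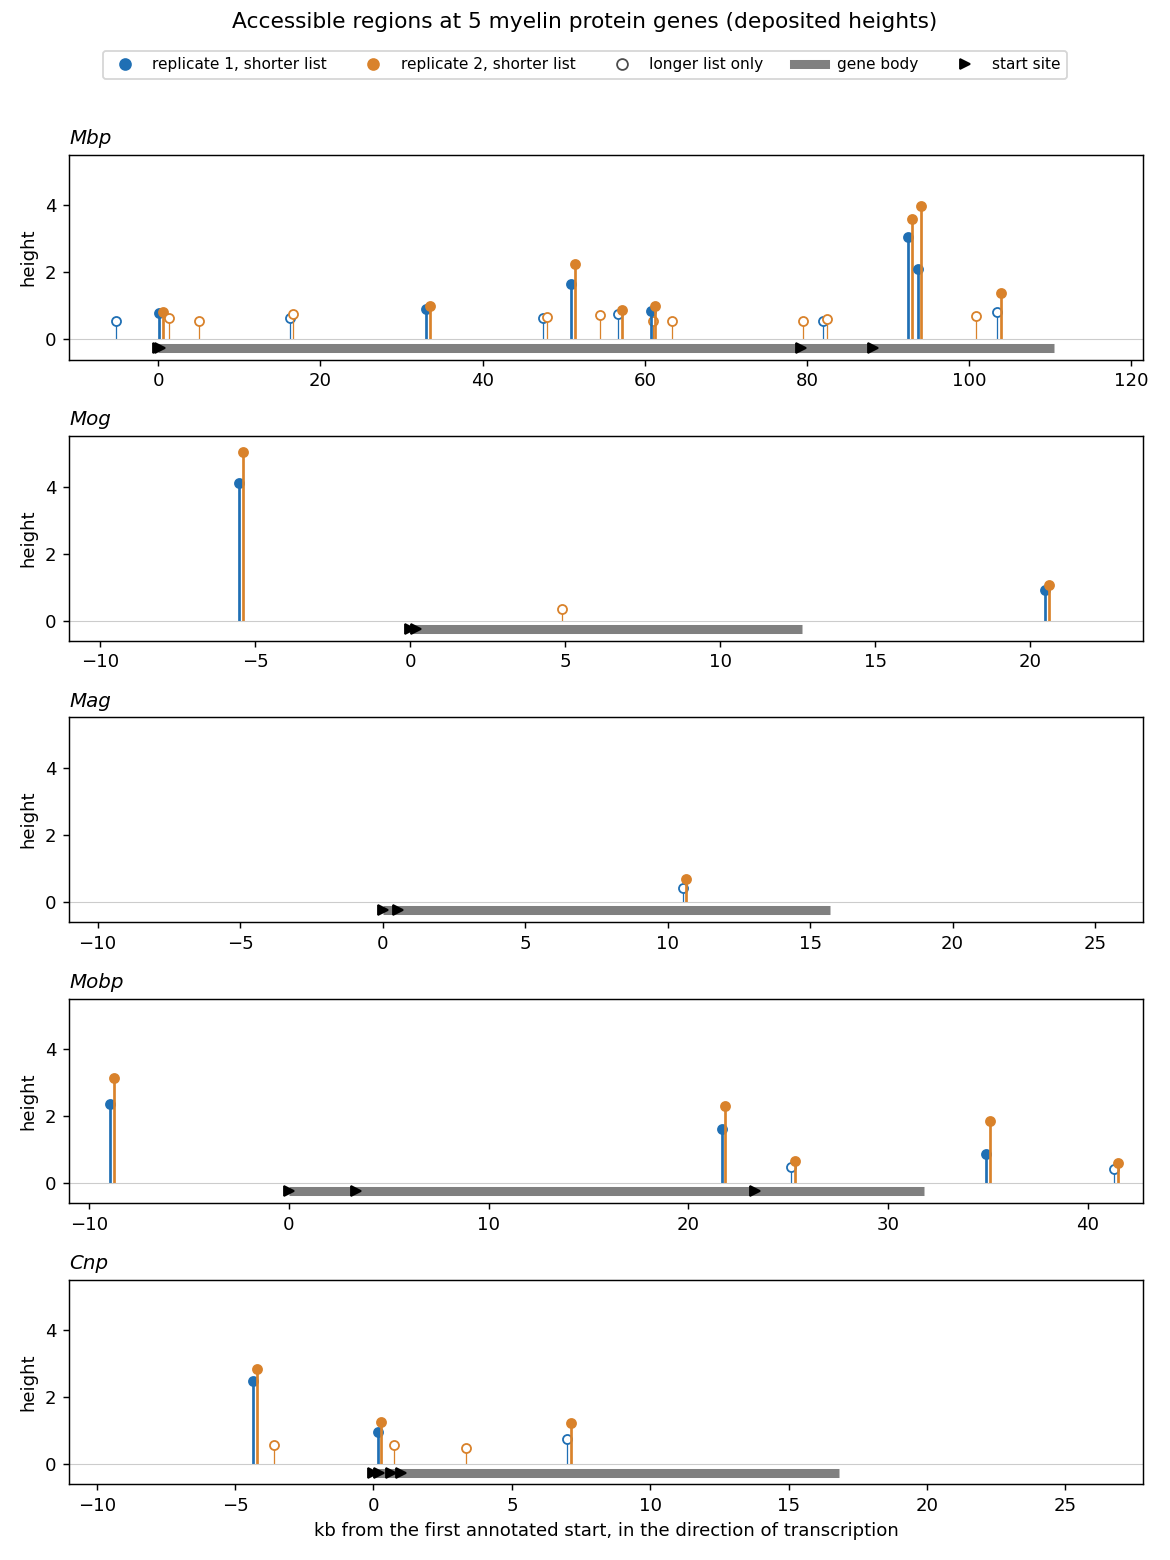
Heights of regions (vertical axis, the authors' signal value) along each gene and 10 kb on each side, in kb from the first start in the direction of transcription. Filled points are regions of the shorter list, open points those of the longer list alone, and the points of the libraries are set slightly apart sideways; the highest place in each library is 5.2 kb upstream of Mog, with 4.09 and 5.02.

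The highest of these places was 5.2 kb upstream of Mog, between genes, with 4.09 in replicate 1 (37028641 to 37028860) and 5.02 in replicate 2 (37028641 to 37029060). Its percentile among regions away from all annotated starts was 98.8 in replicate 1 and 98.7 in replicate 2, and it was the place with the lowest false discovery rates, 5.66e-40 and 2.59e-61. The nearest annotated start of another gene, the small RNA Gm22388, is 13298 bp away. The Mog gene body itself held 1 weak intronic region, of 0.333, in the longer list of replicate 2. The other shared place counted at Mog, with 0.918 and 1.05, overlaps a start of Zfp57, the zinc finger factor that protects imprints, and is not assigned to Mog.

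Mbp held 6 shared places in a locus of 130.5 kb, and the highest were a pair in the introns downstream of the classic start. The first, at 82567781 to 82568000, had heights of 3.07 and 3.58 and lies 13221 bp past the classic starts in replicate 1 and 13201 bp in replicate 2. The second, at 82568941 to 82569140, had 2.10 and 3.99. Both stood above the Golli start region in each library, and their percentiles among regions away from starts ran from 88.2 to 96.8. Upstream of the classic start, in the introns of the Golli unit, the place at 82526221 to 82526420 had 1.64 and 2.25, and weaker shared places at 82508341 to 82508580 (0.905 and 0.9996) and 82536061 to 82536340 (0.842 and 1.005) were near the median of such regions. A place over a coding exon at 82578761 to 82578960 had 1.40 in replicate 2 and, in the longer list, 0.830 in replicate 1. A further place in replicate 2 alone, at 82531957 to 82532220 in a Golli intron, had 0.879, against 0.761 in the longer list of replicate 1.

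Mobp held 3 shared places, none at a start. The upstream one, 8.8 kb before the first start and between genes, had 2.34 in replicate 1 and 3.12 in replicate 2. The intronic one had 1.62 and 2.31. The last, at 120184621 to 120184800, past the end of Mobp in an intron of the noncoding Gm38642, had 0.861 and 1.85, a log2 ratio of 1.10 that was the largest among the 13 shared places. Replicate 2 alone had a place of 0.661 over an exon with untranslated sequence and one of 0.585 in an intron of Gm38642, for which the longer list of replicate 1 had 0.478 and 0.415.

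At Cnp the highest place was not the start but a region 4.2 kb upstream, with 2.48 and 2.85, in an intron of the neighbour Ttc25. In an intron of Cnp, 7.06 kb from the first start, a place at 100581821 to 100582100 had 1.24 in replicate 2 and 0.754 in the longer list of replicate 1. Mag was the barest locus: its sole place, in an intron about 10.6 kb from the first start, had 0.672 in replicate 2 and 0.421 in the longer list of replicate 1. With 0 shared regions in 35.7 kb it was the sole one of the 5 without any, and 75.7% of coding genes had at least 1 shared region in the body plus 10 kb.

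Relative to length, the shared regions numbered 4.60 per 100 kb at Mbp, 6.12 at Mog, 5.79 at Mobp and 8.15 at Cnp, against a median of 3.47 over all coding genes. As counted, only Mag, at 0, lay below that median. The percentiles of the other 4 among all genes ran from 61.4 for Mbp to 80.2 for Cnp. The value of Cnp rests on 3 shared regions in 2 places, because its start place counts with 2 regions of replicate 1. The value of Mog rests on 2 shared regions. Without the Zfp57 place, which is not assigned to Mog, it would lie below the median too. The count of Mbp, 6 against a median of 2, had a percentile of 93.2, in a locus longer than those of the other 4.

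All 13 shared places were higher in replicate 2. The log2 ratio of replicate 2 to replicate 1 had a median of 0.30 over these places and ranged from 0.09 to 1.10. Over all 48179 overlapping pairs of the genome the median was 0.33, and 81.4% were higher in replicate 2, so the offset was not particular to these genes. Over the 14 shared regions of the 5 genes, the Zfp57 place included, the median height was 1.29 and 2.05 in the libraries. Their mean was 1.67 ± 0.537 (SD, n = 2). These are regions and not the 13 places, since the Cnp start place counts with 2 regions in each library. The median of replicate 1 falls in a gap between heights of 0.968 and 1.62, so the distance between the 2 medians is not read as an offset.

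**Figure D4:**
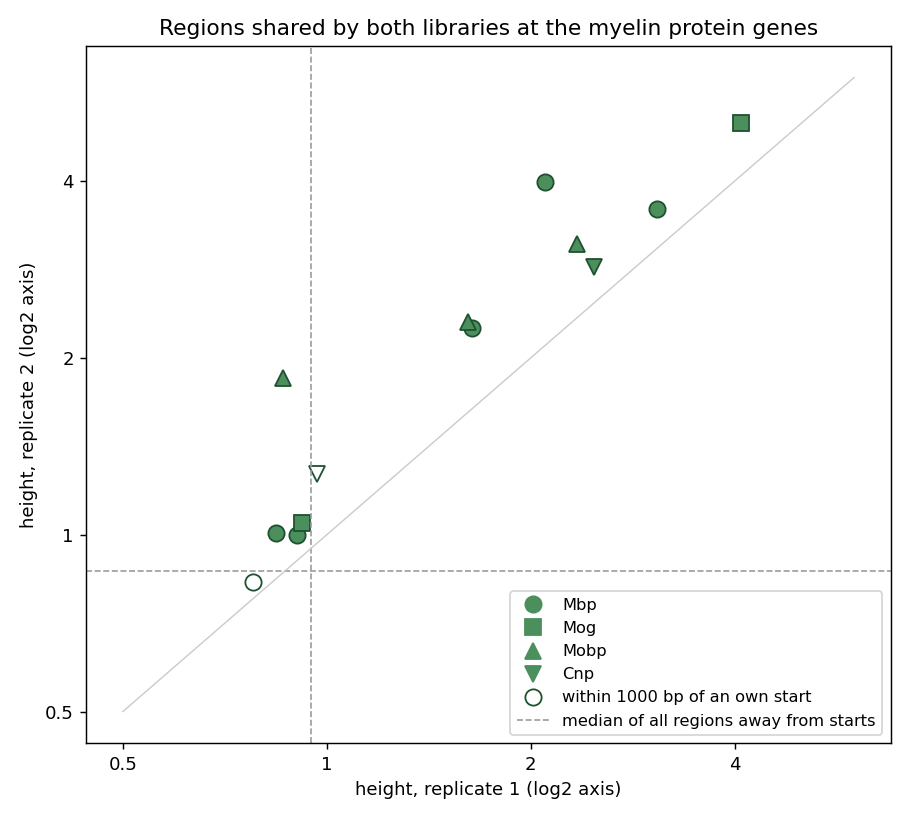
Height in replicate 2 against replicate 1 for the 13 shared places (both axes log2, the authors' signal value), with marker shape for the gene and open markers within 1000 bp of an own start. All points lie above the line of equal heights, the start places of Mbp and Cnp stand in the lower part, and dashed lines give the medians of all regions away from starts, 0.949 and 0.869.

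Footprints were counted inside the regions of the shorter lists. Replicate 1 had 44 and replicate 2 had 57 over the 5 loci, and 29 of the 44 overlapped one of replicate 2. These totals include the Zfp57 place, which is not assigned to Mog. Its regions held 5 and 1 footprints in replicate 1, and its region in replicate 2 held 8. The Golli start region had 1 footprint in replicate 1 and 0 in replicate 2, and none common to both. The Cnp place, including the flanks given by the longer list, had 8 and 6, of which 3 overlapped. The upstream Cnp place, over the joined extent of both libraries' regions, had 4 in each, all overlapping. The region of replicate 2 itself held 2 of these. At each of the pair of intronic Mbp places, 4 of the 4 footprints of replicate 1 overlapped. Counted with its longer-list flanks in the same way, the Golli place had 7 and 12 footprints, of which 0 overlapped.

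Wide footprints, a class of 20 bp or more chosen after the widths had been seen, were found in both libraries at 11 positions in 8 of the places. Unlike the totals above, they were taken over the joined extent of the places, longer lists included. The coding exon place of Mbp had a region of replicate 1 in the longer list alone. Of all footprints, 15.8% and 14.7% are that wide. The widest, of 48 bp in both libraries, lies at 100570598 to 100570645 in the place upstream of Cnp. The footprint in the place upstream of Mobp was 37 and 33 bp wide and held a consensus of the insulator protein CTCF, as did that at the coding exon place of Mbp.

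The CTCF consensus, a core of fixed letters with gaps searched on both strands over the joined extent of both libraries' footprints, was in 2 of the 11 wide footprints, against 8.98% of the 28417 wide footprints found in both libraries genome-wide. A wider form with fewer fixed letters, tried after seeing the data, was in 6 of the 11, against 28.6%. Every match of the first form is also one of the second. In windows of 200 bp centred on the regions the first form was in 1 of 15 and 2 of 20, against 5.34% and 4.60% of the windows of all regions. There the wider form was in 8 of 15 and 8 of 20, against 21% and 19.2%. Here and for the motifs below, windows at starts and away from starts were not separated, so the shares of all regions mix both classes. The differences were not tested, and nothing particular to these genes is read from them. Of the windows with the wider form, the 8 of replicate 1 include windows at the Zfp57 place, which is not assigned to Mog, and the 8 of replicate 2 do not.

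Motifs of oligodendrocyte factors were searched on both strands in a window of 200 bp centred on each region. The window reaches past regions narrower than that, 7 of 15 in replicate 1 and 13 of 20 in replicate 2, so a match can lie beside the region, and the counts are of windows. ACAAAG was in 2 of 15 windows of replicate 1 and 2 of 20 of replicate 2, against 12.8% and 13.1% of the windows of all regions, and ACAATG in 0 of either (7.19% and 7.39% of all). The MYRF motif CTGGCAC was in 1 and 2 windows (6.61% and 6.69% of all) and CTGGTAC in 0 (1.79% and 1.89%). For the OLIG type E-boxes, CAGATG was in 3 and 5 windows (16.9% and 18.1% of all) and CATATG in 1 and 2 (2.37% and 2.40%). With 15 and 20 windows, those at the Zfp57 place included, these counts are small, and nothing particular to these genes is read from them. The E-box CAGCTG was in 3 and 4 (16.6% and 18.1%), and the GC box GGGCGG in 2 and 3 (25.6% and 22.5%). TTGGCA, part of the nuclear factor I site, was in 2 and 1 (16.6% and 16.3%), GGAATG of TEAD factors in 1 and 0 (9.97% and 10.1%) and TATAAA in 1 of each (4.40% and 4.42%). The full palindrome of nuclear factor I, TGACGTCA and the ZFP24 element were in none, and they are rare over all windows at 0.103%, 1.20% and 0.033% in replicate 1 and 0.105%, 0.906% and 0.0404% in replicate 2.

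The other genes of the pathway formed a list of 35, of which 17 had an accessible start in replicate 1, 26 in replicate 2 and 16 in both, against the 59.6%, 64.1% and 59.3% of all coding genes. In the longer lists 26 and 27 had one, and 25 in both, and of the genes open in replicate 2 alone, all but Pllp and Nkx6-2 had a region in the longer list of replicate 1. The start regions of 4 of the 16 genes also lie at the start of another gene, so they are not assigned to 1 gene alone.

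Among 13 other membrane proteins of myelin, 3 were open in both libraries and 5 in neither. Opalin and Ermn had no region in either list, and Mal, a proteolipid, had one in the longer lists alone (0.289 and 0.317). Among those open in both were Gpr37, a receptor (0.962 and 1.07), and Nfasc, an adhesion protein that neurons also make (2.06 and 3.75). Cldn11 (0.727), Tspan2 (0.879), Pllp (1.10), Cntn2 (1.02) and Bcas1 (0.513) were open in replicate 2 alone, and all but Pllp had a region in the longer list of replicate 1. The Tspan2 region also lies at a start of the antisense Tspan2os and is not assigned to Tspan2 alone.

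Of 7 genes of lipid and metabolic enzymes, 3 were open in both libraries: Fa2h, which hydroxylates fatty acids (0.704 and 0.967), Car2, carbonic anhydrase (1.38 and 1.64), and Enpp6 (0.377 and 0.366). Ugt8a, the enzyme of galactosylceramide synthesis (0.705), and Trf, transferrin (0.814), were open in replicate 2 alone. The Trf region also lies at a start of the coding gene Gm20425, so it is not assigned to 1 gene alone. Gal3st1, which makes sulfatide, was open in replicate 1 alone (0.717), and Aspa had no region in either list.

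Of 11 regulators, 7 were open in both libraries and 10 in replicate 2. Olig1 (1.55 and 1.46) and Olig2 (1.13 and 1.08), the bHLH factors of the lineage, Myrf (0.899 and 1.89) and Sox8 (3.06 and 3.33, with the start of an antisense RNA at its region) were among them. Nkx2-2 (0.737), Nkx6-2 (0.513) and Zfp488 (0.825) were open in replicate 2 alone. Sox10 had no start region in either list and 1 shared region in its locus. Differences between the roles were not tested.

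**Figure D5:**
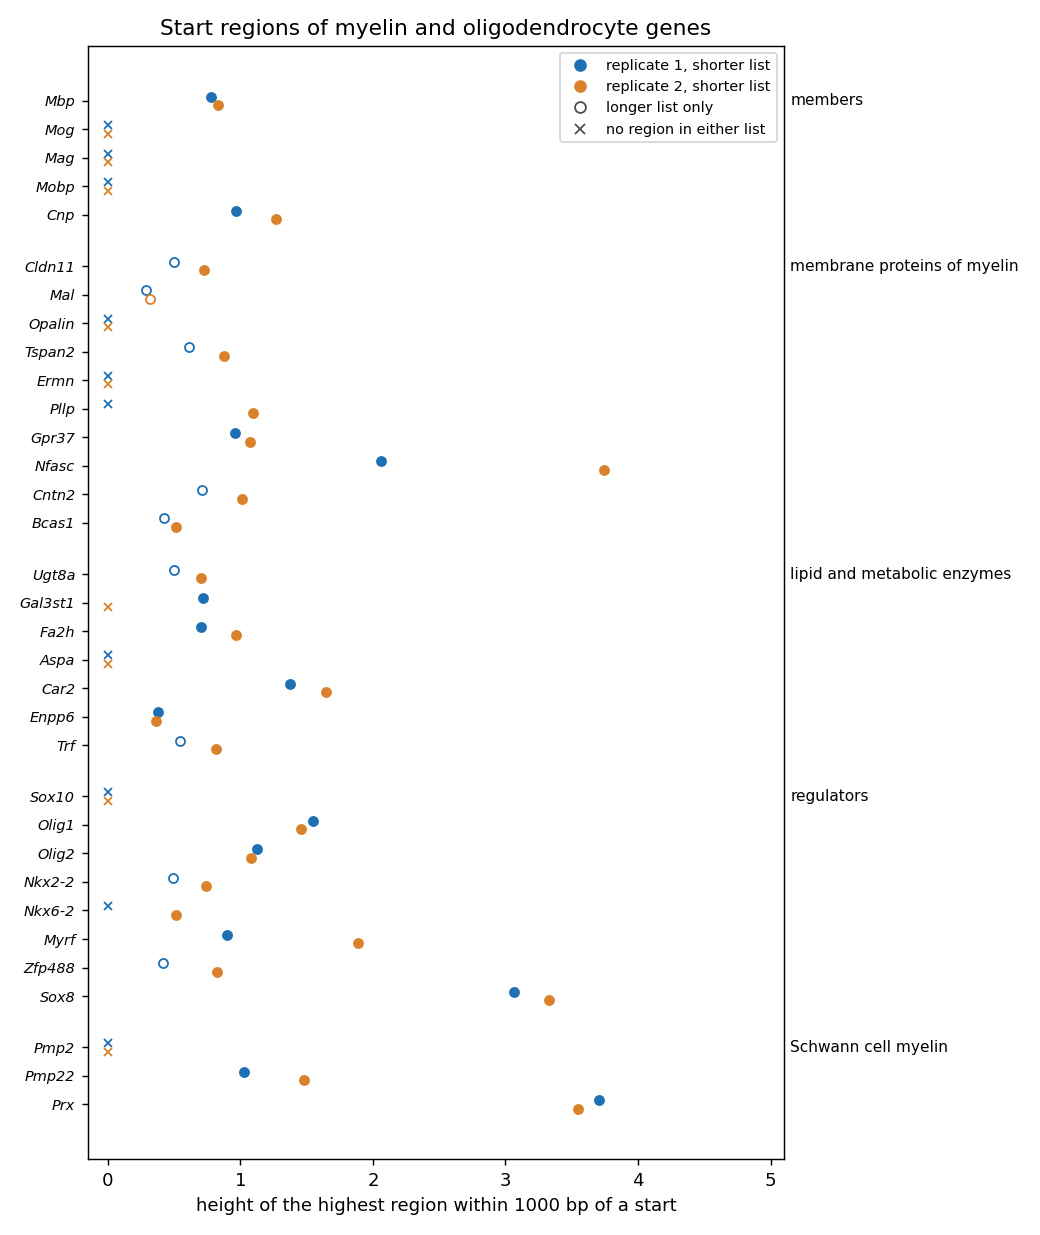
Height of the highest region within 1000 bp of a start (horizontal axis, the authors' signal value) for the 5 genes and those genes of the list that the text names, by role. Filled points are of the shorter list, open points of the longer list alone and crosses mark no region in either; the 3 genes Mog, Mag and Mobp carry crosses in both libraries, as do Opalin and Ermn.

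Markers of cell types were counted in the same way, beside the 59.6% in replicate 1 and 64.1% in replicate 2 of all coding genes. Start regions were present at 6 of 6 neuronal genes in each library, at 5 and 4 of 6 astrocyte genes, at 4 and 5 of 7 genes of oligodendrocyte precursors and at 2 and 3 of 8 genes of oligodendrocytes, a list that includes the 5. Microglial genes had 0 and 3 of 6, endothelial and mural genes 3 and 1 of 5 and the short marker list of Schwann cells 2 of 3 in each. The lists are short, several counts lie near the share of all coding genes, and no cell type is read from them. Of 4 Schwann cell myelin genes, the peripheral counterparts, 3 were open in both libraries, Pmp22 (1.02 and 1.48) and Prx (3.70 and 3.55) among them, and Pmp2 in neither. The Prx region also lies at the start of the antisense Gm15541, so it is not assigned to 1 gene alone.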

How the data were processed

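DNase-seq of 2 libraries of 1 group was analysed. Per the notes deposited with each sample, region lists, footprints and false discovery rates were derived on mm10 from filtered alignments of each library separately, along with other sources that the notes do not name. No source used here names the caller, its threshold or the sequencing depth, and no counting error was attached to values. The deposited height of a region is a signal value of the authors whose scaling is not stated. The deposited false discovery rate per base was read as an adjusted p-value of the authors, listed up to 0.05, and the 0.01 in every footprint row as their limit.

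Regions were matched to GENCODE M21 starts with Python 3.11.15, genome sequence was read with samtools 1.23.1 indexing, and listed bases were compared with the longer lists with bedtools 2.31.1. Of the bases with a rate, 9963421 of 28665047 and 16166328 of 43925972 lay outside the longer lists. Sequences came from RefSeq GRCm38.p6, and region ends lay within its chromosomes. A symbol annotated at more than 1 locus was counted once.

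The members and lists were chosen with earlier results of these data known. No test was made: the members are described beside the share of all coding genes. The search for regions at starts was tested on simulated data. All 5 members are named, with pathway genes open in 1 library and up to 4 others per role and class. Some genes of the pathway list are counted but not reported here by name. Alternatives covered the longer lists, the stronger 50% of regions, start distances of 500 and 2500 bp, flanks of 0 and 50 kb, reciprocal overlap of 50%, start joining, transcript type, a rate of 0.01 and each replicate on its own.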

Additional observations from a re-analysis of the deposited data

How the results depend on the processing

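The count of 2 genes with an accessible start was also 2 with the longer lists, at 500 bp, with protein-coding transcripts only and in each replicate alone (from 2 to 2). It was 3 at 2500 bp, where the last start of Mobp counts, and 0 in both libraries together with the stronger 50% of regions. These leave out the start region of Mbp in each library and the start regions of Cnp in replicate 1. The Cnp region of 1.27 in replicate 2 was kept, above the median height of 1.03 in that library. The 6 start sites became 0 with the stronger 50%, 7 at 2500 bp and 8 of the separate start positions, and were 6 in each replicate alone. The 14 shared regions became 25 with the longer lists, 7 with the stronger 50%, 9 without flanks, 46 with flanks of 50 kb and 10 with reciprocal overlap, and ranged from 15 to 20 in single replicates. The 29 common footprints became 33 with the longer lists and 22 with the stronger 50%, and single replicates had 44 to 57. The 16 open genes of the pathway list became 25 with the longer lists and 10 with the stronger 50%, and ranged from 17 without replicate 2 to 26 without replicate 1. The mean of 2024 bases listed at 0.05 around the starts was 1401.5 at 0.01 and ranged from 1557 to 2491 in single replicates. The median height of shared regions, 1.67, was 0.935 with the longer lists and ranged from 1.29 to 2.05. The wider CTCF consensus raised the count in wide footprints from 2 to 6. The longer lists and the stronger 50% change by construction how many regions are considered. No share of all coding genes is given with the stronger 50%, at 500 or 2500 bp, or with protein-coding transcripts only. Whether the counts of genes and start sites at these settings are unusual was therefore not tested. No paired analysis was possible because there is 1 group. Sequencing depth was not known, so an empty window means that no region was listed, not that DNA was closed.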
